A study of Mus musculus with 8 samples.

Results

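The genes described here build and move the actin cytoskeleton: actin itself, the crosslinkers, myosin II, the tropomyosins and calponins, the Arp2/3 complex with its activators, filament elongators, monomer binders and disassembly factors, focal adhesion proteins and the proteins that tie actin to the membrane. The list holds 56 genes, of which 53 had a probe set that names only that gene, out of 22180 genes measured. Arpc1b, Arpc3 and Actr2 have no such probe set among those used and are not analysed here. The genes were chosen with the transgenic and wild-type values of these arrays in view, so their differences are given as a description, and no test of the group as a whole was made.

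The 8 microarrays carried RNA from conventional dendritic cells (cDC) that bear CD103 and CD11b, isolated by flow cytometry from mesenteric lymph nodes of male C57BL6 mice aged 8 weeks and fed control chow. The 4 transgenic arrays came from mice with human BCL2 under the CD11c promoter (hBcl-2 transgene), and the 4 wild-type arrays came from control littermates, which lack it. The CD11c promoter is active in dendritic cells as a class and in some other myeloid cells, so the transgene is not limited to the sorted subset. Every array was made from 2 to 3 samples combined. The animals behind each pool are not named, so n = 4 pools per group and the errors measure the spread between pools.

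Actin monomers assemble into polar filaments that push the membrane forward, and the Arp2/3 complex starts new branches from existing filaments while formins and Ena/VASP proteins lengthen them. Nonmuscle myosin II slides filaments past each other, and crosslinkers hold them in bundles and nets. Dendritic cells use branched actin at the front and myosin contraction at the rear to squeeze through tissue, and they rebuild the network when they mature and stop taking up antigen. Serum response factor (SRF), with cofactors that sense free actin monomers, drives many actin genes through a DNA element called the CArG box.

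Promoters of 53 of the 56 genes are in the RefSeq table for GRCm38.p6, with Actb, Coro1b and Diaph1 missing. Each window runs from 250 bases before to 50 after a start, and genes with several starts gave 67 windows in all. The CArG box (both strands read alike, since the element is its own reverse complement in form) was found in 7 of the 67 windows, 10.4%, and in 1.63% of all 32851 promoter windows of that length. The 7 genes were Actg1, Arpc4, Cnn2, Lima1, Myl6, Myl9 and Vcl. The 250 bases before the start are shown for 5 of them, 4 with a mean on the transgenic arrays below that of the wild type and Myl9 with one above it, with the CArG box in capitals.
Lima1 (chr15:99820150-99820399, - strand): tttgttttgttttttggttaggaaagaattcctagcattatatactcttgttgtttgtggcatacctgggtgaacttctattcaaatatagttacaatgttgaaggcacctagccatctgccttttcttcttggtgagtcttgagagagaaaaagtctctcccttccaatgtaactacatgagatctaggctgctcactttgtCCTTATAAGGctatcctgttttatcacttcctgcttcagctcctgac
Actg1 (chr11:120348496-120348745, - strand): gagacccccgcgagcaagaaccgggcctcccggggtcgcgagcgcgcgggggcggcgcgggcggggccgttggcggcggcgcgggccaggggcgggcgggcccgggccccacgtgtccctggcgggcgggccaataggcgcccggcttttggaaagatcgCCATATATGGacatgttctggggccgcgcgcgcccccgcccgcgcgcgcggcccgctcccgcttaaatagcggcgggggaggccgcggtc
Cnn2 (chr10:79988350-79988599, + strand): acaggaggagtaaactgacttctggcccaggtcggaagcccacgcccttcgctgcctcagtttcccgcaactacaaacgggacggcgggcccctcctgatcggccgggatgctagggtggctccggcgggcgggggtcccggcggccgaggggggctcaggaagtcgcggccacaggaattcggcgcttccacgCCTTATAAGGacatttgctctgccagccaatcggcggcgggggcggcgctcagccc
Myl6 (chr10:128493010-128493259, - strand): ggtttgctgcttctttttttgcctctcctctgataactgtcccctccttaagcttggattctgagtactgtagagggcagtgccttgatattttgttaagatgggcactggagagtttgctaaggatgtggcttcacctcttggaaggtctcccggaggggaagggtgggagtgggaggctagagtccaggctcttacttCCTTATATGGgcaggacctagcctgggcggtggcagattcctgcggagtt
Myl9 (chr2:156775214-156775463, + strand): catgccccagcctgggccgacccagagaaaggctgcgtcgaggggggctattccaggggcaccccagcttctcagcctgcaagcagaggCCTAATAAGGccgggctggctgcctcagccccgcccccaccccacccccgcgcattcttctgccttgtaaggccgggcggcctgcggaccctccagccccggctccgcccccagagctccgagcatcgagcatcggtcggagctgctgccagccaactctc

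In Lima1 the box lay 47 to 38 bases before the start, in Myl6 50 to 41, in Cnn2 56 to 47, in Actg1 90 to 81 and in Myl9 161 to 152. Vcl carried the same letters as Lima1 and Cnn2, CCTTATAAGG, 227 to 218 bases before its start, and Arpc4 carried CCTAATTTGG 250 to 241 bases before. Among the genes past the expression threshold given below, 1 of 11 had a CArG box in the window (Lima1), against 6 of the 39 genes with a promoter in the table that were measured and did not pass. The 3 genes not measured had none. The motif GGAATG, read on both strands and known from TEAD factors, was in 19.4% of the members' windows and in 14.7% of all windows. The AP-1 motif TGANTCA was in 7.46% and 7.81%. These are matches of letters and say nothing about binding.

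The deposited values are log2 signals per probe set after RMA, and a difference of 1 is a factor of 2. The differences below are transgenic minus wild type. Probe sets differ in brightness for reasons other than transcript number, so levels are compared between arrays and never between genes. The median gene was at 5.32, and values near it are hard to tell from background. On transgenic replicate 4 the values were spread less widely (SD over genes 1.94 against 2.03 to 2.07 on the other 7 arrays), and it correlated less with its group (0.974 against 0.980 to 0.988). The cDC markers Flt3, Ccr7, H2-Ab1 and Zbtb46 were bright in both groups (their differences are given with the other marker lists), while Itgae (CD103) was at 5.66 and 5.40 and Itgam (CD11b) at 5.57 and 5.58 in wild-type and transgenic arrays, so the sorting markers themselves were dim.

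The transgenic cDC had lower mean signals for most actin cytoskeleton genes. Those past the threshold include the filament crosslinkers filamin A and alpha-actinin 1, an integrin and several LIM domain proteins of adhesion sites, the myosin IIA heavy chain and the elongation factor VASP. Of 53 measured genes, 11 fell, 0 rose and 42 did not pass (limma, adjusted p below 0.05 over all 22180 genes). Over all genes, 1.69% passed the same threshold, 0.848% falling and 0.839% rising. Because this contrast was in view when the genes were chosen, the shares cannot be read as evidence about the group. The adjusted p-values of the 11 ran from 0.0117 to 0.0445 in limma, and Coro1a lay just outside at 0.0504. At an unadjusted p below 0.05 there were 31 lower and 2 higher genes among the 53, where the shares over all genes were 6.60% and 6.56%. Among the 3412 genes with a mean of at least 8, 647 were lower and 304 higher at that level. Among the 39 members at that brightness, 26 were lower and 1 higher. These shares are also the background for the counts at an unadjusted p by role and list below. In bulk RNA, fewer cells of a kind and less RNA per cell cannot be told apart.

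The median log2 difference (transgenic minus wild type) of the 53 genes was -0.37, with a range of -1.19 to 0.36, and 43 of them were negative. Over all genes the median was -0.00 and 50.3% were negative. These genes are bright, and bright genes as a class lay lower on the transgenic arrays: of 3412 genes with a mean of at least 8, 59.5% were negative, the median was -0.06 and 3.58% fell. Among the 39 members at that brightness, 34 were negative and 8 fell. The groups did not overlap, with all transgenic arrays lower, for 29 of the 53 genes, and with all transgenic arrays higher for 1, Gsn, while over all genes these shares were 4.94% and 4.00%. Among all genes with a mean of at least 8 the shares were 16.0% and 6.42%, and among the 39 members at that brightness 24 were lower without overlap and 0 higher.

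The number past the threshold depended on which array was left out. Leaving out any wild-type array left few calls: 2 members fell without replicate 1, 2 without replicate 2, 4 without replicate 3 and 2 without replicate 4. Without transgenic replicates 2 or 3 there were 5 each, and without replicates 1 or 4 there were 12 and 8. Over all genes, 0.230% to 0.275% fell without a wild-type array, so the loss was not limited to actin genes. Swap70 and Itga5 fell in all 8 of these fits, whereas Lima1 passed in 0 of them.

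**Figure D1:**
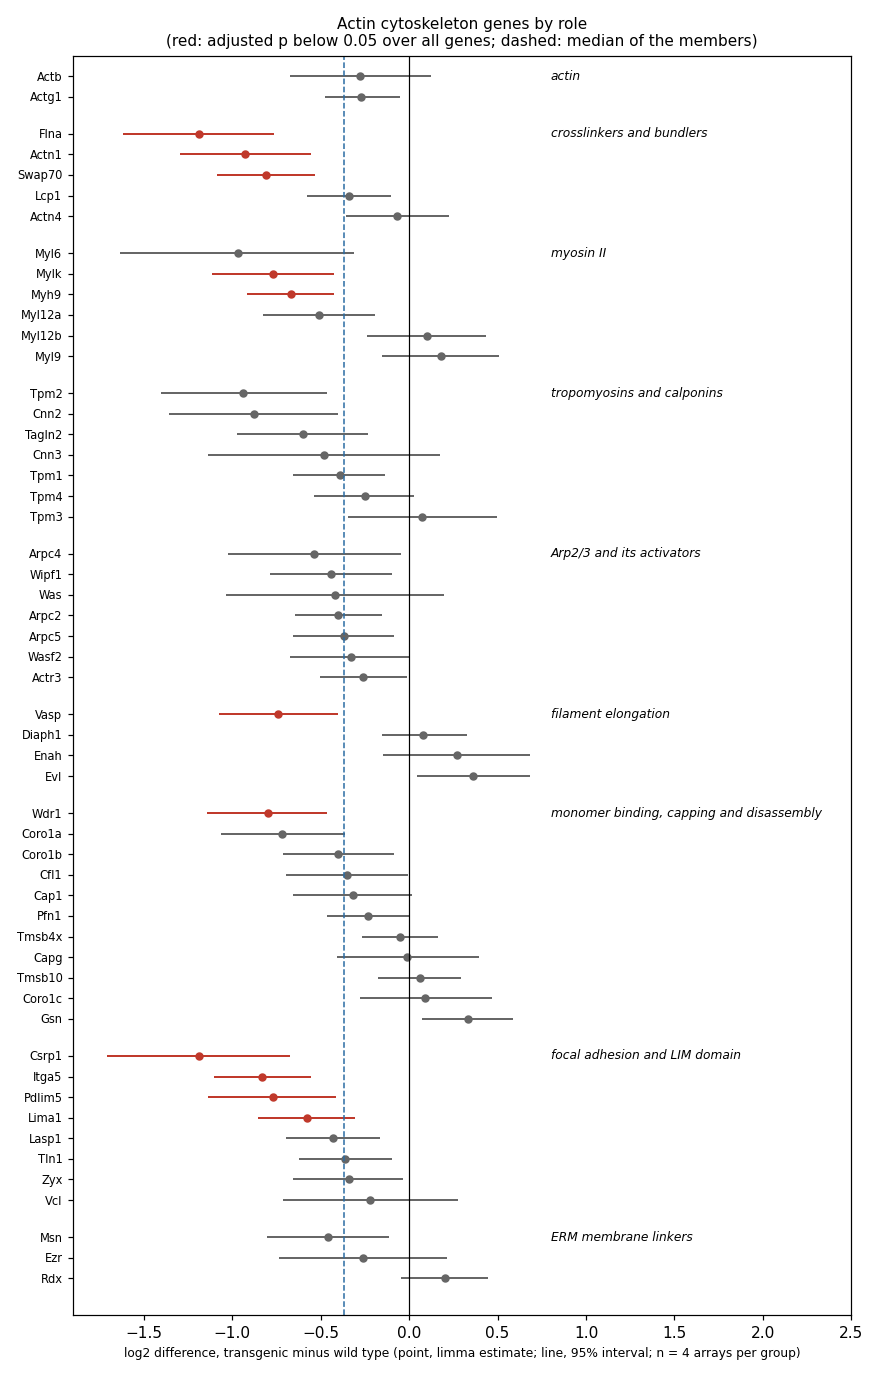
Log2 difference of each of the 53 genes, transgenic minus wild type, grouped by role, with the 95% interval from limma (n = 4 arrays per group). The 11 red genes passed the threshold, all to the left of 0, and 10 of the 53 points lie to the right of 0.

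The actins were a little lower on the transgenic arrays and did not pass. Actg1, which encodes cytoplasmic gamma-actin, was at 12.98, 12.90, 12.91 and 12.96 on the wild-type arrays and 12.71, 12.65, 12.66 and 12.64 on the transgenic arrays. The groups did not overlap, and the difference was -0.27 (SE 0.09). Actb, which encodes cytoplasmic beta-actin, was at 10.24, 10.26, 10.17 and 10.12 on the wild-type arrays and 10.16, 10.10, 10.10 and 9.33 on the transgenic arrays, a difference of -0.28 (SE 0.18). Here transgenic replicate 4 set the difference, since the other 3 transgenic arrays lay within the wild-type range or just below it, and without that array the difference was -0.08. The actins are nearly identical in coding sequence, so probes of each may detect the other. Of the 6 Actg1 probe sets, the brightest is the one used above. The other 5 gave -0.55, -0.42, -0.42, -0.18 and 0.03, and the pair at -0.42 hold the same values on every array and count as a single measurement.

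Among crosslinkers and bundlers 3 of 5 fell: Flna, Actn1 and Swap70. Flna encodes filamin A, which joins filaments at wide angles into a net, and it was at 9.78, 9.39, 9.17 and 9.45 on the wild-type arrays and 8.70, 8.30, 8.21 and 7.84 on the transgenic arrays. Every transgenic array was below every wild-type array, and the 2.28-fold lower signal corresponds to -1.19 (SE 0.19, 95% interval -1.61 to -0.77). Actn1 encodes alpha-actinin 1, which crosslinks antiparallel filaments and ties them to adhesions. It was at 11.27, 11.10, 11.10 and 11.32 on the wild-type arrays and 10.60, 10.40, 10.29 and 9.80 on the transgenic arrays, a difference of -0.93 (SE 0.16, 95% interval -1.29 to -0.56), and again the groups did not overlap. Swap70, an actin-binding protein, was at 11.44, 11.44, 11.52 and 11.28 on the wild-type arrays and 10.83, 10.55, 10.67 and 10.40 on the transgenic arrays. Its difference was -0.81 (SE 0.12, 95% interval -1.08 to -0.54), with a gap between the groups on all arrays. The second alpha-actinin, Actn4, did not follow: it was at 8.22, 8.24, 8.00 and 8.40 on the wild-type arrays and 8.24, 8.22, 8.27 and 7.88 on the transgenic arrays, a difference of -0.07 (SE 0.13), and 0.02 without transgenic replicate 4. Lcp1, which encodes the leukocyte bundler L-plastin, was at -0.34 (SE 0.10) with groups that did not overlap and did not pass. Fscn1, the bundler fascin that marks mature dendritic cells, is not among the 53 and fell. Its log2 difference was -0.69 (SE 0.12, 95% interval -0.97 to -0.42), with an adjusted p of 0.0235 by limma. The call was lost in 7 of 20 alternatives, among them leaving out any single wild-type array.

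In the myosin II set the heavy chain Myh9 and the kinase Mylk fell, and the light chains split. Myh9, the heavy chain of nonmuscle myosin IIA, was at 11.05, 11.07, 11.12 and 11.03 on the wild-type arrays and 10.43, 10.46, 10.53 and 10.17 on the transgenic arrays. The wild-type arrays lay within 0.1 of each other, and the transgenic arrays were all lower, by -0.67 (SE 0.11, 95% interval -0.91 to -0.43) in the mean. Mylk, the kinase that switches myosin II on by phosphorylating its regulatory light chain, was at 7.17, 7.35, 7.28 and 7.34 on the wild-type arrays and 6.88, 6.67, 6.19 and 6.31 on the transgenic arrays, a difference of -0.77 (SE 0.15, 95% interval -1.11 to -0.43). Transgenic replicates 3 and 4 were lowest for this gene. The essential light chain Myl6 had the lowest point estimate of the set, -0.97 (SE 0.30), but its arrays were scattered, at 9.47, 9.50, 8.99 and 8.87 on the wild-type arrays and 9.07, 8.18, 8.26 and 7.44 on the transgenic arrays, and transgenic replicate 1 lay inside the wild-type range. Of the regulatory light chains, Myl12a was at 12.12, 11.99, 11.86 and 11.99 on the wild-type arrays and 11.80, 11.54, 11.40 and 11.17 on the transgenic arrays, with a difference of -0.51 (SE 0.14) and no overlap. Its near-identical neighbour Myl12b was at 0.10 (SE 0.15), and Myl9 was at 6.47, 6.42, 6.56 and 6.87 on the wild-type arrays and 6.57, 6.57, 7.04 and 6.83 on the transgenic arrays, a difference of 0.18 (SE 0.15). Probes may cross-detect Myl12a and Myl12b, and the dimmer Myl12a probe set gave 0.11 (SE 0.14), so how far these light chains differ from each other is uncertain.

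None of the 7 tropomyosins and calponins passed in limma, although 4 had an unadjusted p below 0.05, all lower. Tropomyosins run along the filament and decide which other proteins can bind it. Tpm2 was at 8.11, 7.52, 7.60 and 7.19 on the wild-type arrays and 6.39, 6.44, 6.76 and 7.08 on the transgenic arrays, a difference of -0.94 (SE 0.21), the lowest of the set. All transgenic arrays lay below all wild-type arrays, but the wild-type arrays themselves spread over almost a unit. Cnn2, a calponin that binds actin and dampens myosin, was at 11.11, 10.74, 10.64 and 10.39 on the wild-type arrays and 10.32, 9.53, 10.01 and 9.49 on the transgenic arrays, a difference of -0.88 (SE 0.21), also without overlap. Tagln2, the leukocyte transgelin, was at -0.60 (SE 0.16), and its second probe set at -0.90 (SE 0.23). Tpm1 was at -0.39 (SE 0.11) with groups that did not overlap. Tpm4 was at -0.25 (SE 0.12), and its groups met at 10.92, the value of replicate 4 in both. They count as not overlapping only by digits beyond those printed. Tpm3 was at 8.52, 8.52, 8.30 and 8.63 on the wild-type arrays and 8.32, 8.66, 8.17 and 9.10 on the transgenic arrays, a difference of 0.07 (SE 0.19) that changed sign to -0.11 without transgenic replicate 4, and its other probe set gave -0.37 (SE 0.17). Cnn3 was at -0.48 (SE 0.29) with arrays of both groups intermixed.

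**Figure D2:**
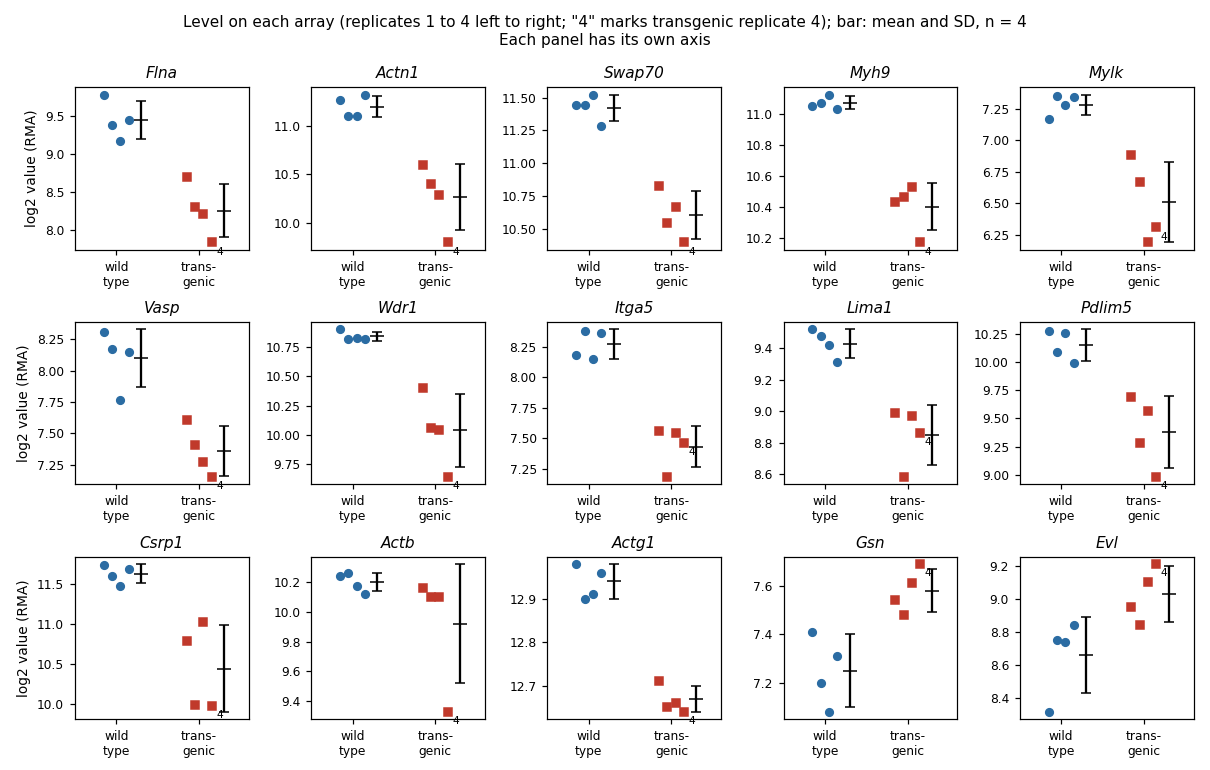
Log2 value on each array for the 11 genes past the threshold and for Actb, Actg1, Gsn and Evl, with replicates 1 to 4 from left to right in each group and the mean and SD beside them (n = 4). In the 11 panels all transgenic points lie below all wild-type points, Actb differs by transgenic replicate 4 at 9.33, and Gsn is the gene whose transgenic points all lie above.

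The Arp2/3 complex and its activators were lower in the mean for 7 of 7 measured genes, by similar and small amounts, and 0 passed in limma. At an unadjusted p below 0.05 there were 5, all lower. Arpc2, a core subunit that holds the complex on the mother filament, was at 11.85, 11.81, 11.80 and 11.84 on the wild-type arrays and 11.58, 11.43, 11.45 and 11.22 on the transgenic arrays. The wild-type arrays were within 0.1 of each other, and the difference was -0.40 (SE 0.11). The subunits Arpc5 and Actr3 were at -0.37 (SE 0.13) and -0.26 (SE 0.11), both without overlap between groups. Arpc4 was at 10.29, 10.39, 10.11 and 9.94 on the wild-type arrays and 9.88, 9.99, 9.78 and 8.93 on the transgenic arrays, a difference of -0.54 (SE 0.22). Its transgenic replicate 4 was far below the rest, and without that array the difference was -0.30. Among the activators, Wipf1, the WASP-binding protein WIP, was at -0.44 (SE 0.15), Wasf2, which encodes the WAVE2 activator, at -0.33 (SE 0.15), and Was, which encodes WASP, at 6.84, 7.23, 6.66 and 7.15 on the wild-type arrays and 6.92, 7.04, 6.58 and 5.65 on the transgenic arrays. The Was difference was -0.42 (SE 0.28) with all arrays and -0.12 without transgenic replicate 4.

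Filament elongation factors went in both directions. Vasp, which protects growing filament ends from capping and adds monomers to them, fell: it was at 8.31, 8.17, 7.77 and 8.15 on the wild-type arrays and 7.61, 7.41, 7.27 and 7.15 on the transgenic arrays, a difference of -0.74 (SE 0.15, 95% interval -1.07 to -0.41), and the groups did not overlap. The other Ena/VASP members had the opposite sign. Evl was at 8.32, 8.75, 8.74 and 8.84 on the wild-type arrays and 8.95, 8.84, 9.10 and 9.21 on the transgenic arrays, a log2 difference of 0.36 (SE 0.14), which missed the threshold, with 3 of 4 transgenic arrays above every wild-type array. Enah was dim at 0.27 (SE 0.18), and the formin Diaph1 was at 0.08 (SE 0.10). Whether Vasp and Evl differ from each other in their change was not tested.

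Of 11 genes for monomer binding, capping and disassembly, 1 fell, Wdr1. Wdr1 encodes the cofilin helper AIP1, which takes filaments apart, and was at 10.90, 10.82, 10.83 and 10.82 on the wild-type arrays and 10.40, 10.06, 10.04 and 9.64 on the transgenic arrays. The wild-type arrays agreed within 0.1, every transgenic array was lower, and the difference was -0.80 (SE 0.15, 95% interval -1.14 to -0.47). Cfl1, which encodes cofilin itself, was at -0.35 (SE 0.15) and -0.21 without transgenic replicate 4. Coro1a, the leukocyte coronin, was at 9.89, 9.87, 9.70 and 9.74 on the wild-type arrays and 9.23, 9.37, 9.08 and 8.65 on the transgenic arrays, a difference of -0.72 (SE 0.15) without overlap. It missed the threshold with all arrays and passed without transgenic replicate 4 (difference -0.57). Coro1b was at -0.40 (SE 0.14), and Coro1c at 0.09 (SE 0.16). Of the monomer binders, Pfn1, profilin, was at -0.23 (SE 0.10) with no overlap between the groups and did not pass. The thymosins were closer to 0, with Tmsb4x, thymosin beta 4, at -0.05 (SE 0.09) and Tmsb10 at 0.06 (SE 0.10). Pfn1 and Tmsb4x, like Actg1, lie near the top of the scale, where differences can be compressed. Gsn, which encodes the severing and capping protein gelsolin, stood on the other side at 7.41, 7.20, 7.08 and 7.31 on the wild-type arrays and 7.54, 7.48, 7.61 and 7.69 on the transgenic arrays. All of its transgenic arrays were above all wild-type arrays, and the difference of 0.33 (SE 0.11) did not pass. Cap1 was at -0.32 (SE 0.15), and the capping protein gene Capg, which is dim here, at -0.01 (SE 0.18).

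The focal adhesion and LIM domain set held the most calls, with 4 of 8 genes fallen and all 8 negative. Itga5, the alpha chain of the fibronectin receptor, was at 8.18, 8.38, 8.15 and 8.36 on the wild-type arrays and 7.56, 7.18, 7.54 and 7.46 on the transgenic arrays, and the groups were apart by more than the range of either. Its difference was -0.83 (SE 0.12, 95% interval -1.10 to -0.56). Csrp1, a LIM protein that binds alpha-actinin, was at 11.74, 11.60, 11.48 and 11.69 on the wild-type arrays and 10.78, 9.98, 11.03 and 9.97 on the transgenic arrays. Transgenic replicates 2 and 4 were lowest, about a unit below the other transgenic arrays, and the difference was -1.19 (SE 0.23, 95% interval -1.70 to -0.68), -1.03 without transgenic replicate 4. Pdlim5, which also docks on alpha-actinin through its PDZ domain, was at 10.28, 10.09, 10.26 and 9.99 on the wild-type arrays and 9.69, 9.28, 9.57 and 8.98 on the transgenic arrays, a difference of -0.77 (SE 0.16, 95% interval -1.13 to -0.42). Lima1, the filament stabiliser EPLIN, was at 9.52, 9.48, 9.42 and 9.31 on the wild-type arrays and 8.99, 8.58, 8.97 and 8.86 on the transgenic arrays, a difference of -0.58 (SE 0.12, 95% interval -0.85 to -0.31). In both genes every transgenic array was below every wild-type array. Tln1, talin, which switches integrins on, was at -0.36 (SE 0.12), Zyx, zyxin, at -0.34 (SE 0.14), and Lasp1, dim at 5.84 in wild type, at -0.43 (SE 0.12). Vcl, vinculin, was at 7.09, 7.00, 6.45 and 6.83 on the wild-type arrays and 7.04, 6.75, 6.72 and 6.00 on the transgenic arrays, a difference of -0.22 (SE 0.22) with overlapping groups.

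The membrane linkers of the ERM family did not pass. Msn, moesin, the main ERM protein of leukocytes, was at 11.60, 11.50, 11.42 and 11.38 on the wild-type arrays and 11.21, 11.09, 11.20 and 10.56 on the transgenic arrays, a difference of -0.46 (SE 0.15) without overlap. Ezr, ezrin, was at 8.97, 8.62, 8.56 and 8.46 on the wild-type arrays and 8.57, 8.69, 8.60 and 7.72 on the transgenic arrays, a difference of -0.26 (SE 0.21). It was low on transgenic replicate 4 alone, and without that array the difference was -0.04. Rdx, radixin, was at 8.67, 8.83, 8.76 and 8.91 on the wild-type arrays and 8.93, 9.05, 9.12 and 8.86 on the transgenic arrays, a difference of 0.20 (SE 0.11), with 3 of 4 transgenic arrays above every wild-type array.

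**Figure D3:**
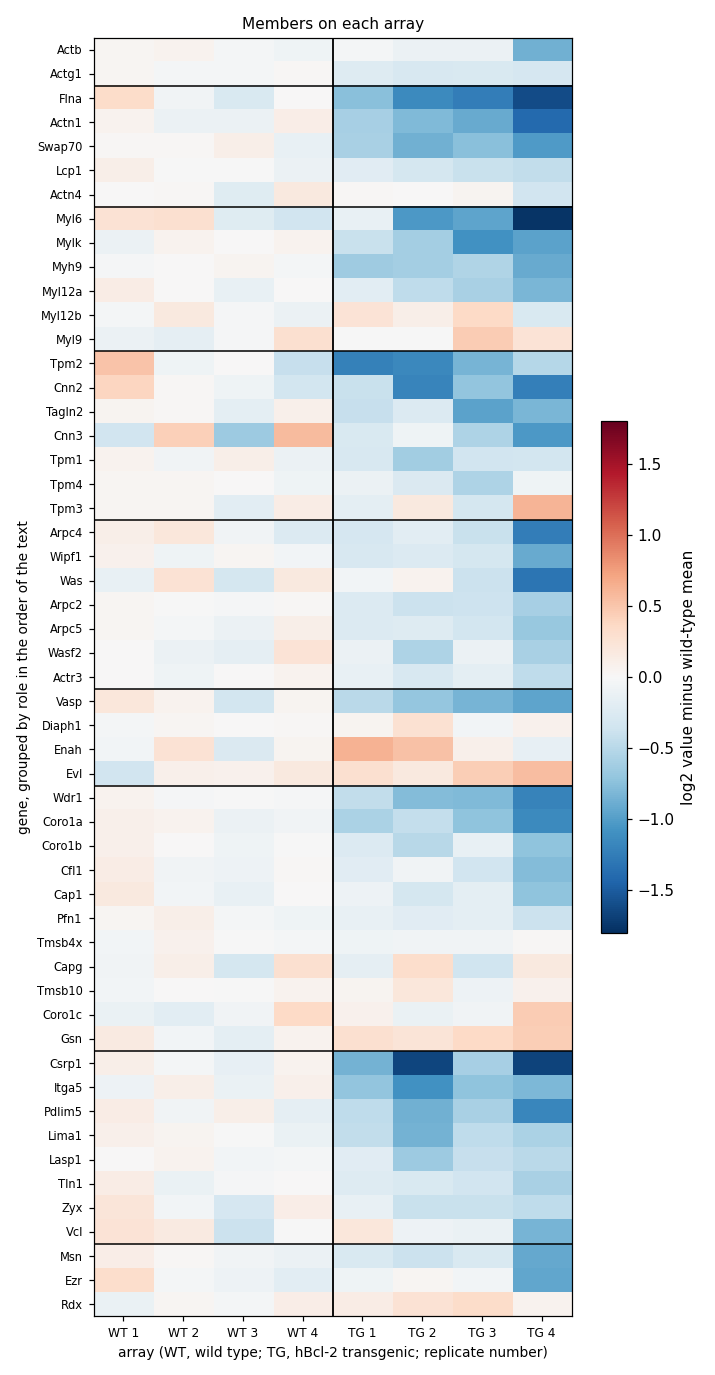
Each of the 53 genes on each of the 8 arrays as the log2 value minus the wild-type mean, in the order of the roles above. The wild-type columns are pale, and the transgenic columns are blue for most genes, with the deepest blue in transgenic replicate 4.

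The wild-type arrays were more alike for these genes than the transgenic arrays, as they were for bright genes as a class. The median SD over the 53 genes was 0.11 in wild type and 0.26 in transgenic arrays. All genes gave 0.17 and 0.21, and genes with a mean of at least 8 gave 0.13 and 0.22. Without transgenic replicate 4 the transgenic median SD of the 53 genes was 0.16. It was then also 0.16 over all genes, and 0.15 over genes with a mean of at least 8. That array was the lowest of the transgenic arrays for 36 of the 53 genes (67.9%), while it was the lowest for 28.4% of all genes and for 54.5% of genes with a mean of at least 8. The median over the 53 genes of the value minus the wild-type mean was -0.21, -0.29, -0.35 and -0.68 on transgenic replicates 1 to 4, and -0.06 to 0.04 on the wild-type arrays. The other 3 transgenic arrays therefore also lay below the wild type in the median. Without replicate 4 the median difference was -0.29, 44 of 53 genes were negative and 8 fell, of which 6 were among the 11.

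**Figure D4:**
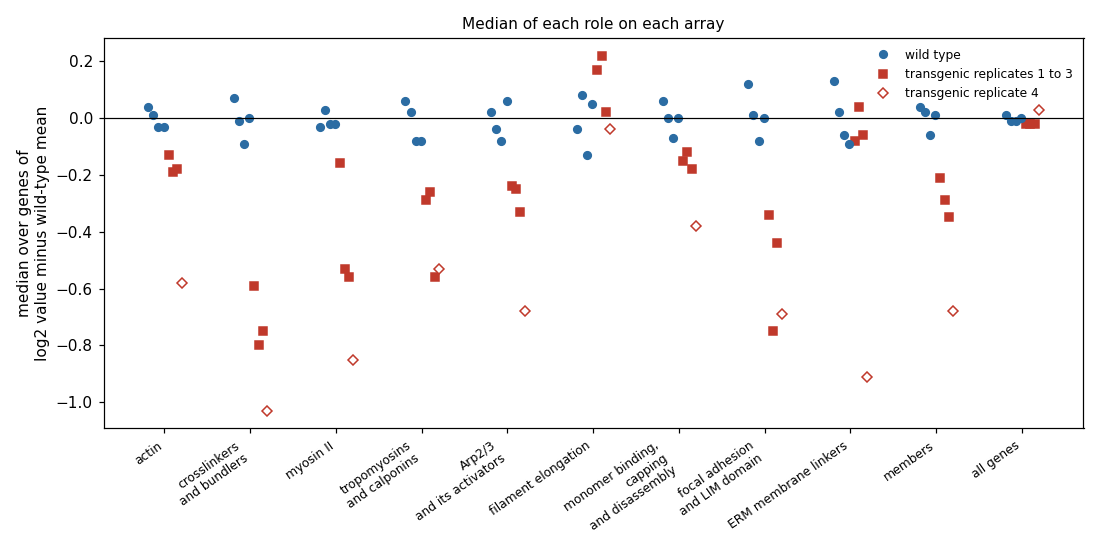
Median over the genes of each role of the log2 value minus the wild-type mean, 1 point per array (circles, wild type; squares, transgenic replicates 1 to 3; open diamonds, transgenic replicate 4). Crosslinkers lie at -0.59 to -1.03 on the transgenic arrays and the elongation factors at -0.04 to 0.22. The median of the 3 ERM genes is low on transgenic replicate 4 alone (-0.91), although Msn was below the wild type on all 4 transgenic arrays.

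By role, the median difference was -0.81 for crosslinkers and bundlers, -0.59 for myosin II, -0.51 for focal adhesion and LIM genes, -0.48 for tropomyosins and calponins, -0.40 for Arp2/3, -0.27 for the actins, -0.26 for the ERM genes and -0.23 for monomer binding, capping and disassembly. Only the 4 elongation factors had a positive median, 0.18. The differences between roles were not tested, and several roles hold fewer than 6 genes.

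Probe sets that the choice of the brightest left aside gave a second reading for 8 genes. These 12 further probe sets hold 11 distinct readings, since 2 of Actg1 have the same values, and 8 of the 11 were negative, 3 positive and 0 passed in the limma fit over all probe sets. Arpc5 gave -0.37 and -0.35, and Tpm4 -0.25 and -0.58. Msn had a dim second set at -0.66 (SE 0.37), and that of Coro1c was at 0.01 (SE 0.23). No gene past the threshold had a second probe set, so the 11 calls rest on 1 probe set each.

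Outside the 53, a wider list of 174 actin pathway gene names was drawn up by function, of which 160 were measured. Mrtfa, Mrtfb, Ccn1 and Ccn2 were entered under an old and a new name, and only the new names were measured. Fscn1 was kept out because its result was already known, and the members, chosen with this contrast in view, were left out too. The list is therefore a description and no independent check. Of the 160 genes, 2 fell and 1 rose in limma, 1.25% and 0.625%, close to the shares over all genes given above. The median difference was -0.07 and 102 were negative. Coro2a, another coronin, fell from 9.14 ± 0.11 (SD, n = 4) to 8.53 ± 0.13, with a difference of -0.60 (SE 0.11, 95% interval -0.85 to -0.36) and an adjusted p of 0.0277 by limma. Tmod2, a tropomodulin that caps slow-growing filament ends, rose from 6.55 ± 0.19 (SD, n = 4) to 7.30 ± 0.27, with a difference of 0.75 (SE 0.16, 95% interval 0.40 to 1.10) and an adjusted p of 0.0445 by limma. All 4 transgenic arrays lay beyond the wild-type range for both of these genes. Leaving out a wild-type array ended the calls: without any of replicates 1 to 4, 0 fell and 0 rose. Without transgenic replicates 1 or 3, 2 fell and 0 rose, without replicate 2, 0 fell and 1 rose, and without replicate 4, 1 fell and 2 rose.

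Within that wider list, no gene passed among the 16 other Arp2/3, WASP and WAVE genes, 14 formins and nucleators, 18 myosins and light chain regulators, 16 crosslinkers and membrane skeleton genes, 25 focal adhesion and podosome genes, or 24 genes of SRF, its cofactors and targets. At an unadjusted p below 0.05 in limma these sets held 2, 2, 2, 0, 4 and 5 lower and 0, 1, 1, 1, 0 and 1 higher genes. The lowest in each were Nckap1l, the WAVE complex subunit HEM1 (-0.45, SE 0.11), the formin Inf2 (-0.68, SE 0.16), the class I myosin Myo1g (-0.54, SE 0.12), the plastin Pls3 (-0.27, SE 0.12), paxillin, Pxn (-0.61, SE 0.13), and Thbs1, thrombospondin 1 (-0.39, SE 0.13), by moderated statistic. The highest were Brk1 (0.10, SE 0.38), Spire1 (0.27, SE 0.11), Mylip (0.55, SE 0.13), Tns3 (0.48, SE 0.21), Pdlim2 (0.31, SE 0.15) and Fosb (0.54, SE 0.18). The sign of Brk1 rested on transgenic replicate 3, at 11.21, while the other 3 transgenic arrays (9.36, 9.32 and 9.24) lay below every wild-type array (9.46 to 9.77). Negative signs were frequent in the other Arp2/3 set, 14 of 16 with a median of -0.16, and in the SRF set, 21 of 24 with a median of -0.17. In these sets 5 of 16 and 11 of 24 genes had a mean below 6. Thbs1 was dim, at 4.63 and 4.23 in wild-type and transgenic arrays. Srf itself was at -0.35 (SE 0.14), and its cofactor Mrtfb at -0.39 (SE 0.16), neither passing. The remaining myosin, crosslinker and adhesion sets had medians of -0.01, 0.02 and -0.01.

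**Figure D5:**
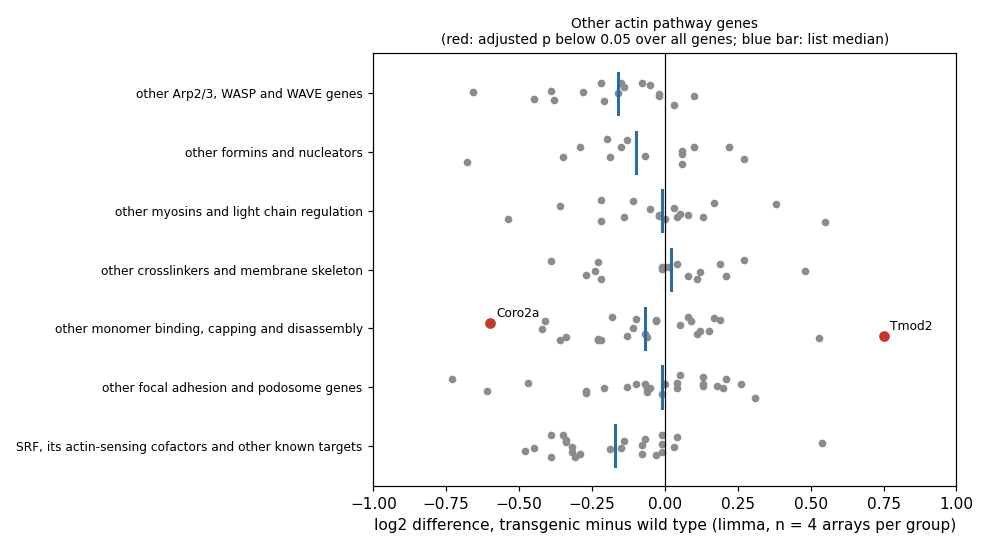
Log2 difference, transgenic minus wild type, of measured actin pathway genes outside the 53, for the sets named on the axis (n = 4 arrays per group; blue bars, set medians). Coro2a to the left and Tmod2 to the right passed the threshold, and the medians lie between -0.17 and 0.02.

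Several of these genes are also abundant in platelets, smooth muscle and stromal cells, and most markers of those cells were dim. All 10 measured platelet and megakaryocyte markers had a mean below 6, with Pf4 at 3.82 and 3.89 in wild-type and transgenic arrays. Their mean per array was 4.76 to 4.88 in wild type and 4.67 to 4.86 in transgenic arrays. Of 10 smooth muscle and pericyte markers 9 were below 6, with Myh11 at 5.24 and 5.07, and the mean per array was 5.13 to 5.26 and 5.04 to 5.21. Of 12 fibroblast and reticular cell markers 10 were below 6, with Col1a1 at 5.58 and 5.43, and the mean was 5.05 to 5.30 and 4.84 to 5.11. Those above 6 were Cxcl13, at 7.46 and 6.89 (-0.57, SE 0.48), and Thy1, at 7.02 and 6.43 (-0.59, SE 0.41). Wild-type replicate 4 was at 9.20 for Cxcl13. In these 3 lists 0 genes passed in limma, and at an unadjusted p below 0.05 only Des, which 2 of the lists share, was lower. Among 13 endothelial markers, 11 were below 6 and Esam fell (log2 difference -0.62 (SE 0.12, 95% interval -0.87 to -0.36)). Esam was brighter than those 11, at 7.41 and 6.80 in wild-type and transgenic arrays, and which cells made it was not tested. At an unadjusted p below 0.05 in limma there were 3 lower, Esam, Kdr (-0.55, SE 0.20) and Cdh5 (-0.40, SE 0.13), and 1 higher, Vwf (0.25, SE 0.11). The mean was 5.04 to 5.28 and 4.97 to 5.22.

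Of 12 measured markers of monocytes and macrophages, 9 had a positive difference and 2 rose, Adgre1 (1.29 (SE 0.19, 95% interval 0.86 to 1.72)) and Csf1r (1.16 (SE 0.19, 95% interval 0.74 to 1.58)), and 5 had an unadjusted p below 0.05 in limma, all higher. The largest difference was that of Ly6c2 (1.81, SE 0.77), at 8.28, 10.38, 5.81 and 7.11 on the transgenic arrays. Its wild-type arrays lay at 5.46 to 6.83, and Cd14 was at 0.74 (SE 0.26). The mean per array over the list was 5.99 to 6.39 in wild type and 6.35 to 7.23 in transgenic arrays. Fcgr1 (4.58 and 4.55) and Mertk (4.66 and 4.73) were dim in both groups. Of 8 T cell markers Cd4 rose (1.18 (SE 0.13, 95% interval 0.88 to 1.48)) and Cd8a was at -0.75 (SE 0.26), the pair with an unadjusted p below 0.05 in limma, with Cd3e at 5.71 and 5.41, and the mean was 5.97 to 6.59 and 6.12 to 6.28. None of 10 epithelial, 9 neutrophil or 7 B and plasma cell markers passed in limma, and at an unadjusted p below 0.05 there was 1, Jchain, higher. Their means per array were 5.11 to 5.26 and 5.20 to 5.48, 4.42 to 4.54 and 4.43 to 4.63, and 6.71 to 7.07 and 6.85 to 7.32. The 10 cDC markers had means of 10.64 to 10.77 in wild type and 10.33 to 10.74 in transgenic arrays, and transgenic replicate 4 was the lowest transgenic array for 7 of them. None passed in limma, but at an unadjusted p below 0.05 there were 3 lower and 0 higher: Flt3 (-0.37, SE 0.16) and H2-Ab1 (-0.25, SE 0.11), both without overlap between the groups, and Zbtb46 (-0.42, SE 0.16). Over all 10 cDC markers the median difference was -0.10, with 7 negative and 3 positive, and that of the members was -0.37. The lists are named by cell type, but bulk RNA does not show which cells made a listed gene. Whether Esam, Cd4, Csf1r and Adgre1 came from the sorted cDC or from other cells was not tested. The part of these cell types in the actin gene differences was not tested either.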

How the data were processed

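The deposited log2 values per probe set were made by the authors with RMA and Partek, as the submitters' processing notes list them without versions (per the labels). RMA makes the arrays' distributions alike, so a shift of all genes would not be seen, and very bright probe sets can be compressed. The genome build is not given in the sources used here. Per the labels' protocols, RNA of sorted cells was amplified before labelling. Arrays have no read depth, and their number limits the precision.

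Probe sets were named through the platform annotation: 23521 of 34390 name 1 gene, 1814 several and 9055 none. The first kind was used, with the probe set of the highest mean per gene (22180 genes, no signal filter). Transgenic minus wild type was fitted on all 8 arrays with limma 3.58.1 (lmFit, eBayes; R 4.3.3). P-values were adjusted over all genes by the Benjamini-Hochberg method, and the threshold was 0.05. Intervals are 95% and SEs are moderated. The script was tested on simulated data. Members, roles and lists were chosen with earlier results of these data known. Any member could be named, with values in full for those past the threshold, the actins, and the highest and lowest statistic of each role. From other lists, genes past the threshold and the highest and lowest could be named, and other members were described by their difference. Srf, Mrtfb and the genes given array by array beyond these (Myl6, Myl12a, Cnn2, Arpc4, Coro1a, Ezr) were picked after their values were seen. Alternatives were other moderation, filters, normalization, probe set choice, array weights (statmod 1.5.0), a replicate block, another threshold and leaving out each array. In the wider list, 1 set and its gene past the threshold are counted but not reported here by name. Figures used matplotlib 3.10.9.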

Additional observations from a re-analysis of the deposited data

Results flagged for a closer look

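Among 57 genes (the 53 and 4 others past the threshold) in 2 groups of 4 arrays each, 6 groups had an array set apart from the other 3 by most of the group's range. Chance alone gives about 1 in 20 independent groups. The genes share the same 8 arrays, so 6 of 114 cannot be judged against that rate. Of the 6, 4 concerned transgenic replicate 4: Actb at 9.33 (others 10.10 to 10.16), Actn4 at 7.88 (8.22 to 8.27), Wipf1 at 8.01 (8.60 to 8.67) and Ezr at 7.72 (8.57 to 8.69), all lower. Tpm1 was low on transgenic replicate 2, at 8.14 (others 8.42 to 8.47). Wdr1 was high on wild-type replicate 1, at 10.90 (others 10.82 to 10.83), a gap that is small against its difference between the groups.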

How the results depend on the processing

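The median difference of the 53 genes stayed between -0.41 and -0.29 under all 20 alternatives, and 0 members rose under any of them. Members that fell numbered 11 with all arrays, 10 to 14 under most other settings, 4 with the replicate block, and 1 without variance moderation, where it was Actg1 and none of the 11. Over all genes, 188 fell and 186 rose. These counts were 19 and 16 without moderation, 92 and 95 with the replicate block, and 393 and 354 at a threshold of 0.1. With a mean of at least 6, 308 fell, and with array weights 283 rose. Leaving out 1 array gave 2 to 12 members fallen, and 51 to 163 of all genes fallen or 55 to 216 risen. Same-numbered arrays had correlations of deviations of -0.03, -0.03, 0.08 and -0.02, and 1 of 4 wild-type arrays correlated best with its own number. These values show no pairing by number, but with so few arrays they cannot exclude one. The block also uses up degrees of freedom, and why fewer genes passed with it was not tested. Other actin pathway genes numbered 2 fallen and 1 risen. The fallen and risen were 5 and 0 with either trended fit, 0 and 0 without moderation, 6 and 2 with either filter, 5 and 2 with array weights, and 7 and 3 at a threshold of 0.1. After quantile normalization again 2 rose, after centring on the median 0 rose, and 1 fell with the mean over probe sets or the replicate block. Leaving out 1 array gave 0 to 2 in each direction. Signs changed for genes near 0: Tmsb4x was at 0.01 after quantile normalization again, and Tpm3 at -0.15 with the mean over probe sets and -0.05 with array weights. Leaving out 1 array gave -0.11 to 0.20 for Tpm3, -0.12 to 0.11 for Capg, -0.14 to 0.02 for Actn4 and -0.03 to 0.21 for Coro1c. Causes were not tested.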
